A study of Mus musculus with 16 samples.

Results

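The nuclear genes of the mitochondrial respiratory chain were followed in CD8+ T cells of the tumor-draining lymph node. Members were chosen by name alone: every row of the lymph node gene table whose symbol begins with Nduf followed by a, b, c, s or v, with Uqcr, with Cox4 to Cox8 or with Atp5, and the rows Sdha, Sdhb, Sdhc and Sdhd. This gave 86 of 9428 genes, of which 38 belong by name to complex I, 8 to its assembly factors (Ndufaf genes), 4 to complex II, 8 to complex III, 11 to complex IV and 17 to complex V. The rule follows names, not biochemistry. Cyc1, a subunit of complex III, falls outside it, and Ndufa4, which is known as a complex IV subunit, is counted with complex I. Ndufb1-ps is also counted with complex I, although the annotation used for positions lists it as a long non-coding RNA gene.

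Cells were C57BL/6 T cells sorted as CD8+CD44+, marks commonly used for antigen-experienced cytotoxic T cells. The cells came from mice aged 16 weeks with melanoma-associated vitiligo, a loss of pigment that accompanies the immune response to a melanoma. They were collected 45 days after the tumor was removed by surgery. All cells share this strain, disease and day, and no group of mice without the disease is among the samples. The 16 samples are 4 libraries, RNA and T cell receptor (TCR) libraries of lymph node and of skin, each run on 4 lanes, and the lanes share their cells. The expression values below come from the lymph node RNA library, whose cells were freed mechanically from the node. Skin RNA was not analysed here, and the sources used here do not give the number of mice behind the library.

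The respiratory chain passes electrons from NADH through complex I, and from succinate through complex II, to coenzyme Q, complex III, cytochrome c and finally oxygen at complex IV. Complexes I, III and IV pump protons as they do so, and complex V, the ATP synthase, uses the proton gradient to make ATP. Complexes I, III, IV and V are built from subunits of both genomes, the nuclear one and the small mitochondrial one, whereas all subunits of complex II are nuclear. Resting memory CD8+ T cells are known to rely on respiration, and activated effector cells add a high rate of glycolysis.

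The gene table held 3266 cells with 14556622 UMIs (unique molecular identifiers, each standing for 1 captured transcript molecule), at a median of 4423 UMIs per cell and a range of 461 to 12576. No cell had more than 4.99% of its UMIs from mitochondrially encoded genes, as a filter on that share would leave them. The CD8 part of the sort was visible in the data: Cd3e had a UMI in 95.3% of cells, Cd8b1 in 96.6% and Cd8a in 83.0%. The CD44 part was not visible in most cells, as Cd44 had a UMI in 26.0%. Cd4 was not among the genes of the table. Ribosomal protein genes took 43.2% of all UMIs. The receptor tables of lymph node and skin had 12 cell barcodes in common. With 1 library there is no replicate, so no test was made and no p-value is given. Intervals in parentheses are 95% intervals for counting error only, exact except for quotients of the 2 genomes. A log2 ratio compares the share of UMIs in a group of cells with that in its comparison cells.

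The promoters of the members are shown first, because the members share known regulators: NRF1, GABP and YY1 are the classic transcription factors of nuclear respiratory genes. RefSeq windows on GRCm38.p6 (mm10), from 250 bases before to 50 after the start of the transcript, were found for 73 of the 86 members. Among those not matched were Atp5a1, Atp5mpl, Cox4i1, Cox6c, Ndufa2, Ndufaf6, Ndufb9, Ndufs1, Sdhc, Uqcrb, Uqcrc2 and Uqcrq. For each complex 1 run of 60 to 120 bases before the start is printed, trimmed to lie outside annotated exons. It is that of the member with most UMIs among those whose trimmed run holds an NRF1 match, or a GABP match where no run of the complex held NRF1. Matches elsewhere in a window did not count for this choice, such as that of Atp5g2 at -42 and that of Sdhd at -79, both NRF1. Each run reads 5′ to 3′ on the gene's own strand, which is the minus strand for all 5, and its capitals mark the matched motif.
Ndufb4: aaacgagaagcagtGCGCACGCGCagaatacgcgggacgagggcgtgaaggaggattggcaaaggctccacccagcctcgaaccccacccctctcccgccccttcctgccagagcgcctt
Sdhd: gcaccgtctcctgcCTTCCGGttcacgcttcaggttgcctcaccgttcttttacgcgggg
Uqcrh: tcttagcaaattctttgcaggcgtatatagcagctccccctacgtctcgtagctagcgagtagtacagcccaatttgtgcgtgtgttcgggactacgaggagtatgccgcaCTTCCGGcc
Cox6a1: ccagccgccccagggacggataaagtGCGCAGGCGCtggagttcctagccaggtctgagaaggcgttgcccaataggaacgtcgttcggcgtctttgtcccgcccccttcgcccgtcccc
Atp5h: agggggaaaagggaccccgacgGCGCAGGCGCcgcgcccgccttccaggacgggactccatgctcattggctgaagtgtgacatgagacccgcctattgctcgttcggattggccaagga
The Ndufb4 run is chr16:37654454-37654573, the Sdhd run chr9:50603850-50603909, the Uqcrh run chr4:116075072-116075191, the Cox6a1 run chr5:115348982-115349101 and the Atp5h run chr11:115419963-115420082. The capitals in Ndufb4, Cox6a1 and Atp5h are NRF1 matches, and those in Sdhd and Uqcrh are GABP matches on the other strand. Counted from the RefSeq start, whose last upstream base is -1, the GABP letters begin at -46 in Sdhd and at -10 in Uqcrh. The NRF1 letters begin at -191 in Ndufb4, -117 in Cox6a1 and -141 in Atp5h.

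Motifs were counted by gene: a gene held a motif if any of its windows did. The 27025 genes had 32851 windows, so genes with several windows had more chances to match. The core palindrome of the NRF1 motif was searched on both strands with its central base left free. It was found for 19 of the 73 members (26.0%, 16.5 to 37.6). It was found for 13.5% of the 7574 matched genes of the table and for 5.19% of all 27025 genes. The GABP letters CCGGAAG, on either strand, were also found for 19 members (26.0%), against 24.2% of table genes and 9.93% of all genes. The YY1 letters AAGATGGCG, on either strand, were found for 8 members (11.0%), against 4.46% and 1.64%. At least 1 of these motifs was found for 39 of 73 members (53.4%), against 37.2% of table genes. By complex this was 15 of 34 members of complex I, 3 of 3 of complex II and 3 of 5 of complex III. It was 3 of 9 of complex IV, 11 of 15 of complex V and 4 of 7 of the complex I assembly factors. General promoter motifs did not set the members apart: CCAAT was found for 42.5% of members and 43.2% of table genes, and TATAAA for 8.22% and 7.99%. A match is a run of letters, not a measured binding site.

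Across all cells the 86 members took 289195 UMIs, or 1.99% of the total (1.98 to 1.99). Complex V took 0.686% and complex I 0.604%, complex IV took 0.456%, complex III 0.181%, complex II 0.0344% and the complex I assembly factors 0.0239%. Complexes IV and V together made up 57.5% of the member UMIs. With Ndufa4 moved to complex IV, complex I would be at 0.563% and complex IV at 0.497%. UMI counts are not scaled to transcript length, so the order of genes by UMIs below is an order of counted molecules, not of levels.

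Among complex V genes, Atp5e, which encodes the small ε subunit of the central stalk, had 13414 UMIs and was seen in 92.6% of cells. Atp5g2, a gene of the proton-carrying c subunit, had 11801, Atp5h, a subunit of the peripheral stalk, had 6972, Atp5g3 had 6854 and Atp5l, a small membrane subunit, had 6453. The catalytic β subunit gene Atp5b had 5936 UMIs and the lowest complex V member, Atp5k, had 2358. Complex V members were therefore each seen in at least 48.5% of cells.

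Complex IV, cytochrome c oxidase, was led by Cox4i1 with 10802 UMIs and Cox8a with 10234, both small subunits added to the catalytic core, followed by Cox6c with 6967 and Cox7c with 6833. Its other members ran from Cox7a2 with 3476 UMIs, through Cox7b with 3975, Cox6a1 with 4245 and Cox6b1 with 4738, to Cox7a2l, known as a supercomplex factor, with 5578. Of the gene pairs with alternative isoforms, the rows of the table were the widely expressed forms Cox4i1, Cox6a1, Cox6b1, Cox7a2, Cox7b and Cox8a. In complex III, Uqcrh, the hinge protein that helps cytochrome c bind, stood apart with 9421 UMIs. The other 7 members had 1666 to 3292.

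Complex I members were spread more widely, from Ndufs1, the largest iron-sulfur subunit, with 483 UMIs to Ndufa4 with 5979. Their median was 116 counts per 1000000 UMIs (CPM), against 183 in complex III, 350 in complex IV and 373 in complex V. The 8 Ndufaf assembly factors had a median of 14.8 CPM, and the lowest of all members was Ndufaf6 with 163 UMIs. Complex II, succinate dehydrogenase, which is also an enzyme of the citric acid cycle, was sparse throughout. Its iron-sulfur subunit Sdhb had 2096 UMIs, the flavoprotein Sdha had 1378 and the membrane anchors Sdhd and Sdhc had 816 and 721. The 10 members with most UMIs held 31.0% of the member UMIs, 47 of 86 were seen in at least 50% of cells, and 12 had under 1000 UMIs.

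**Figure D1:**
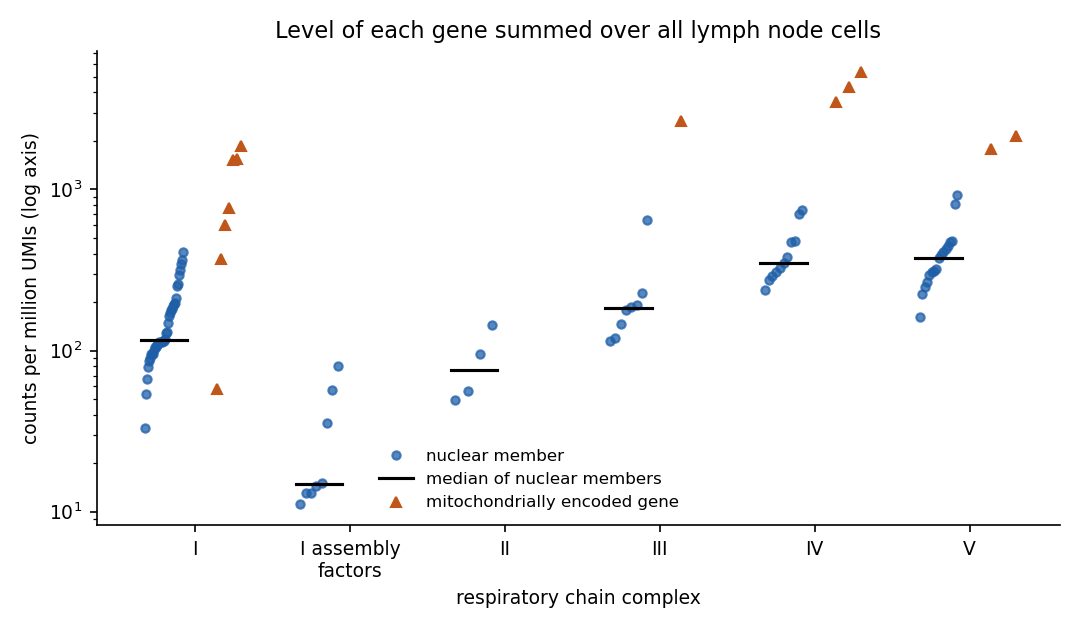
Counts per 1000000 UMIs, on a log axis, of each nuclear member (blue points, with the median of each complex as a bar) and each mitochondrially encoded gene (orange triangles), summed over 3266 lymph node cells and grouped by complex. Nuclear members ranged from 11.2 to 921.5 counts per 1000000, and values are not scaled to transcript length.

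The 13 mitochondrially encoded genes took 384458 UMIs, or 2.64% of the total. They were led by the cytochrome c oxidase subunits mt-Co1 with 77638 UMIs, mt-Co3 with 62674 and mt-Co2 with 50504, followed by mt-Cytb of complex III with 38552. The ATP synthase genes mt-Atp6 and mt-Atp8 had 31379 and 26050 UMIs. The complex I genes ran from mt-Nd4l with 27000, mt-Nd1 with 22445 and mt-Nd2 with 22066, through mt-Nd4 with 11146, mt-Nd5 with 8806 and mt-Nd3 with 5362, to mt-Nd6 with 836. The pairs mt-Atp8 and mt-Atp6, and mt-Nd4l and mt-Nd4, overlap on the mitochondrial genome, so the split of UMIs within each pair is uncertain. mt-Nd6 lies on the other strand and its end overlaps that of mt-Nd5. The sources used here do not say whether counting used the strand.

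Nuclear members therefore gave 0.752 UMIs for each mitochondrially encoded one. This quotient was 1.74 in complex V, 0.901 in complex I, 0.684 in complex III and 0.348 in complex IV, where 3 mitochondrial genes outweighed 11 nuclear ones. These quotients compare counted UMIs of unlike genes and say nothing of protein ratios.

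In a single cell, the members took a median of 1.96% of UMIs (quartiles 1.74 and 2.19), or 85 UMIs. The lowest cell was at 0.140% and the highest at 3.88%. The mitochondrially encoded share was wider, at a median of 2.59% with quartiles of 2.17 and 3.08. Set against the variance that counting alone would give, the nuclear sum varied 2.73 times as much and the mitochondrial sum 7.85 times. By complex the excess was 1.70 for V, 1.55 for I, 1.30 for IV, 1.11 for III and 1.01 for II. At an equal relative spread this excess grows with the count. Median UMIs per cell had the same order, at 29, 25.5, 19, 8 and 1, so the excess does not rank the complexes by how much they vary. For single members it lay between 0.914 and 1.14 with a median of 0.996, so single members varied about as much as counting error at this depth.

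The shares of complexes moved together weakly over the 3266 cells, all of which share 1 library and a common total per cell. Pearson's r was 0.39 between nuclear complexes I and V, 0.36 between IV and V and 0.32 between I and IV. Nuclear complex III gave 0.22 with I, 0.23 with IV and 0.24 with V. Pairs of mitochondrial complexes ran from 0.34 between III and V to 0.60 between I and IV. Between the nuclear and the mitochondrial share r was -0.16 and Spearman's rho -0.11, and in sparse counts such a value is only a description. Over 10 bins of cells by depth, the nuclear share was 1.85% in the shallowest bin, with a median of 1456 UMIs, and 1.94% to 2.06% in the others, without a steady trend. The ribosomal share went from 30.9% in the shallowest bin to 45.4% in the bin next to the deepest and was 43.6% in the deepest.

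Cells were then grouped by marker transcripts. A cell entered a group with 1 UMI of Itgae, the gene of CD103, an integrin subunit whose ligand is E-cadherin, of Klra7, an inhibitory receptor of the Ly49 family, of Izumo1r, the folate receptor FR4, or of Isg15, an interferon-induced ubiquitin-like protein. Cells with no UMI of Ccl5, a chemokine of memory and effector CD8+ cells, formed the last group. There were 384 Itgae cells, 262 Klra7 cells, 171 Izumo1r cells, 477 Isg15 cells and 589 Ccl5-negative cells, each compared with all other cells of the table. The groups overlap: 1789 cells were in none, 1126 in 1, 302 in 2, 43 in 3 and 6 in 4, and 53 of the 171 Izumo1r cells also had an Itgae UMI. The 5 comparisons draw on the same cells, so their values are set side by side without a measure of likeness. A UMI count of 0 does not show that a cell lacks the gene. Deeper cells enter the first 4 groups more easily, while the Ccl5-negative group gathers shallow cells. Even so, Itgae and Izumo1r cells were shallower than their comparison cells, at a median depth of 3682.5 UMIs against 4471 and 4167 against 4430. Median depth was 4932 against 4380.5 in Klra7 cells, 4850 against 4360 in Isg15 cells and 3546 against 4570 in Ccl5-negative cells.

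The nuclear respiratory chain share was close to that of the rest in each of these groups. It was 2.05% in Itgae cells against 1.98%, 2.01% in Klra7 cells against 1.98%, 2.07% in Izumo1r cells against 1.98%, 2.01% in Isg15 cells against 1.98% and 2.02% in Ccl5-negative cells against 1.98%. The log2 ratios were 0.05 (0.03 to 0.07), 0.02 (0.00 to 0.04), 0.07 (0.04 to 0.09), 0.02 (0.01 to 0.04) and 0.03 (0.01 to 0.04). With ribosomal and mitochondrially encoded genes taken out of the total, the sign turned in Itgae cells (-0.13), Izumo1r cells (-0.05) and Ccl5-negative cells (-0.04), while Klra7 and Isg15 cells were at 0.04 and 0.00. The sign of the difference therefore rests on the total that the members are divided by. Over single cells the medians were close: 2.004% in Itgae cells against 1.96%, 2.04% in Izumo1r cells against 1.96% and 1.95% in Ccl5-negative cells against 1.97%, with overlapping quartiles.

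**Figure D2:**
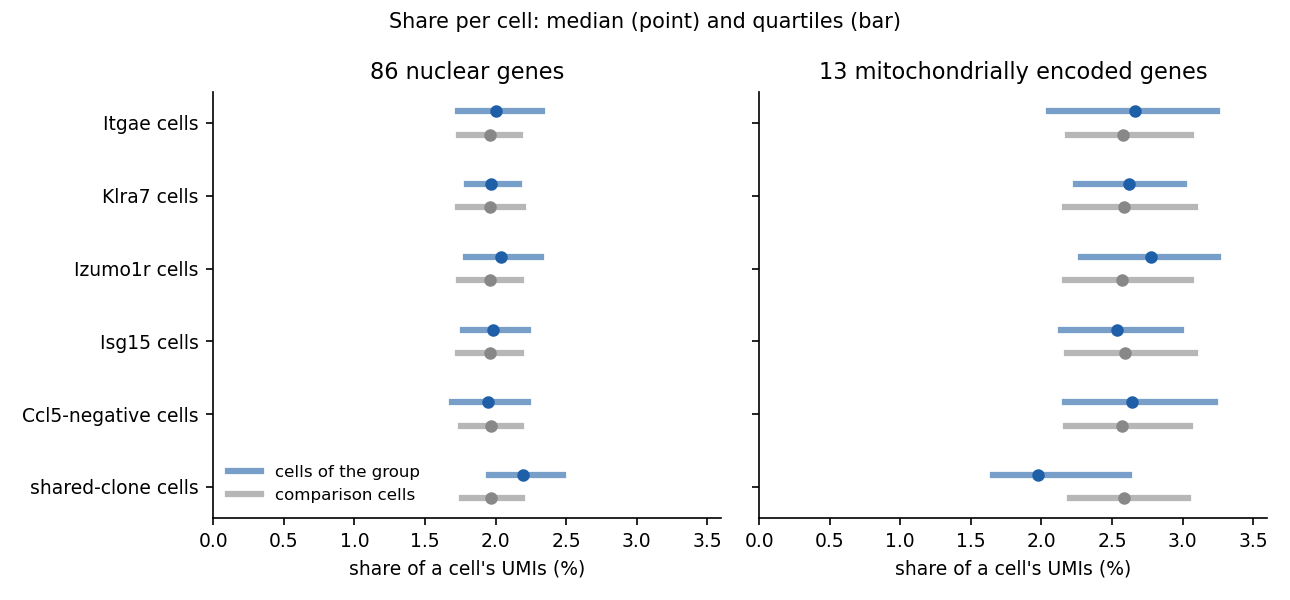
Share of a cell's UMIs, in percent, for the 86 nuclear genes (left) and the 13 mitochondrially encoded genes (right), as the median (point) and quartiles (bar) over the cells of each group (blue) and its comparison cells (grey). The quartile bars of the 5 marker groups overlap those of their comparison cells, and shared-clone cells, at 28 cells, sit at 2.19% and 1.97%.

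No member was past a 25% difference in any of the 5 comparisons, that is, had a summed share at least 25% higher in a group than in its comparison cells, or the reverse. Genes were compared where at least 50 UMIs were expected on the smaller side from their overall level, which kept 81 members in Itgae, Isg15 and Ccl5-negative cells, 79 in Klra7 cells and 75 in Izumo1r cells. The members left out were Ndufaf1, Ndufaf2, Ndufaf5, Ndufaf6 and Ndufaf7 in every comparison. Ndufs1 and Ndufaf3 were also left out in Klra7 cells, and these together with Sdhc, Sdhd, Ndufaf4 and Ndufa9 in Izumo1r cells. Of all genes so compared, 31.9% were past it in Itgae cells, 9.1% in Klra7 cells, 23.7% in Izumo1r cells, 8.49% in Isg15 cells and 15.8% in Ccl5-negative cells. Among genes with at least 200 expected UMIs, where counting error is small, these shares were 21.7%, 2.73%, 15.1%, 2.40% and 8.19%. Under this filter, which was chosen after seeing the data, again 0 members were past 25%, of 53, 50, 31, 72 and 70. With no filter on expected UMIs, 2, 3, 4, 1 and 3 of the 86 members were past it, against 46.8%, 32.8%, 48.1%, 23.3% and 31.6% of all 9428 genes. Split by direction, 28.1% of all genes were past it upward and 3.8% downward in Itgae cells, 2.63% and 6.47% in Klra7 cells, 17.9% and 5.86% in Izumo1r cells, 4.34% and 4.15% in Isg15 cells, and 12.3% and 3.45% in Ccl5-negative cells.

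The median log2 ratio of the members was 0.06 in Itgae cells, 0.01 in Klra7 cells, 0.04 in Izumo1r cells, 0.02 in Isg15 cells and 0.02 in Ccl5-negative cells. Over all genes compared it was 0.17, -0.03, 0.10, -0.00 and 0.09. In Itgae, Izumo1r and Ccl5-negative cells the typical gene was thus shifted upward by more than the typical member. The ribosomal share was smaller in these groups, at 36.7% against 44.0% in Itgae cells, 39.0% against 43.4% in Izumo1r cells and 41.1% against 43.5% in Ccl5-negative cells, and all shares are parts of the same total. With median-of-ratios scaling, which sets the median of all compared genes to 0, the genes past 25% were split differently: 391 higher and 408 lower in Itgae cells, where the total gave 968 and 131, 101 and 158 in Klra7 cells (80 and 197), 172 and 186 in Izumo1r cells (314 and 103), and 305 and 273 in Ccl5-negative cells (540 and 151). Under that scaling 2 members were past it in Itgae cells, Sdhc and Ndufaf3, 2 in Izumo1r cells, Atp5g1 and Ndufaf8, and 1 in Ccl5-negative cells, Sdhc, all of them lower, and 0 in Klra7 and Isg15 cells.

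**Figure D3:**
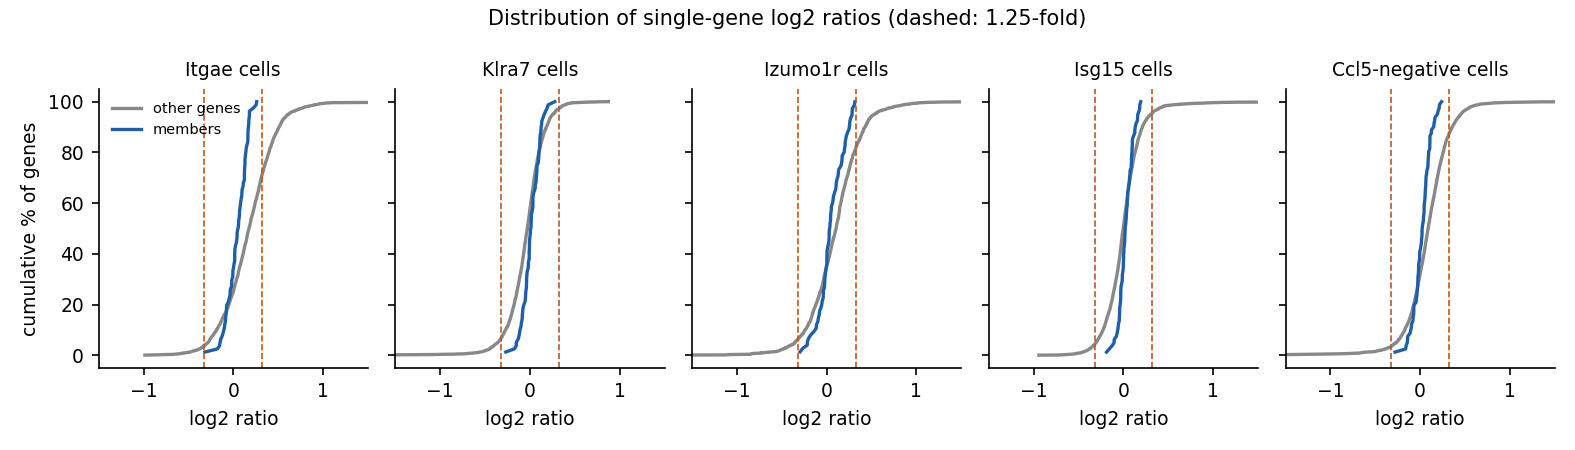
Cumulative percent of genes (vertical axis) by log2 ratio of a marker group over the other cells (horizontal axis), for members (blue) and other genes (grey), among genes with at least 50 expected UMIs. All members lie between the dashed lines, which mark the 25% difference, whereas 8.49% to 31.9% of all genes lie outside them.

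In Itgae cells the nuclear genes of complexes I and IV were slightly higher, and the mitochondrially encoded genes of complex I slightly lower. Nuclear complex I was at 0.629% against 0.601% (log2 ratio 0.06, 0.03 to 0.09) and nuclear complex IV at 0.475% against 0.454% (0.07, 0.03 to 0.10). Nuclear complexes III and V were at 0.03 and 0.03, and with ribosomal and mitochondrially encoded genes out of the total, complexes I, IV and V turned to -0.12, -0.12 and -0.15. Mitochondrial complex I was at 0.645% against 0.674% (-0.06, -0.09 to -0.03), while mitochondrial complex III was at 0.283% against 0.263% (0.11, 0.06 to 0.15) and complex IV at 1.40% against 1.30% (0.10, 0.08 to 0.12).

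Because both genomes are divided by the same total, their quotient does not depend on it. For complex I it was 0.975 nuclear UMIs for each mitochondrial one in Itgae cells and 0.892 in the other cells, a log2 ratio of 0.13 (0.09 to 0.17). With 2 Itgae UMIs required it was 0.04, and with cells thinned to 1500 UMIs it was 0.24. Over all complexes together the quotient was 0.750 against 0.753 (-0.01, -0.03 to 0.02), but 0.12 after thinning and -0.10 with 2 Itgae UMIs, so no direction holds for the sum. Within the mitochondrial set of 13 genes, 7 were above 0 and 6 below. The highest was mt-Nd6, a sparse complex I gene, at 0.22. mt-Co1 was at 5822 CPM against 5273 (0.14, 0.11 to 0.17), mt-Co2 at 0.13 and mt-Cytb at 0.11. mt-Nd1 was at 1461 against 1552 CPM (-0.09, -0.15 to -0.03) and mt-Nd2 at -0.08.

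Single members of Itgae cells differed little. The highest were Ndufa2, an accessory subunit of complex I, at 303 CPM against 253 (0.26, 0.12 to 0.40), Ndufa8, another accessory subunit, at 112 against 93.8 (0.26, 0.02 to 0.48), and Atp5j2, a membrane subunit of the ATP synthase, at 491 against 420 (0.23, 0.12 to 0.33). Ndufa8 changed sign, to -0.11, when cells were thinned. The lowest were Sdhc at 40.7 against 50.6 CPM (-0.32, -0.71 to 0.05), the assembly factor Ndufaf3 at -0.18 (-0.63 to 0.24) and Atp5mpl, a small ATP synthase subunit, at 339 against 377 CPM (-0.15, -0.28 to -0.02). Cox4i1 was at 795 against 736 CPM (0.11, 0.03 to 0.20). B cell markers, of which 7 of 10 were in the table, summed to 314 CPM in Itgae cells and 225 in the others, and the 2 of 7 myeloid markers to 98.2 and 85.7. Cd40lg, the only 1 of 3 CD4 T cell markers in the table, was at 35.0 CPM against 4.55, with 56 of its 115 UMIs in Itgae cells. The plasma cell marker Xbp1, 1 of 4, was at 33.2 against 20.1, and the endothelial marker Pecam1, 1 of 3, at 35.0 against 23.3. Their part in these values was not tested.

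Izumo1r cells had the highest nuclear shares of complexes III and IV among the marker groups. Complex III was at 0.196% against 0.180% (log2 ratio 0.12, 0.05 to 0.20) and complex IV at 0.490% against 0.454% (0.11, 0.06 to 0.16). Without ribosomal and mitochondrially encoded genes in the total these were 0.01 and -0.00, and without cells of the other marker groups 0.06 and 0.05. Complex I was at 0.05 (0.00 to 0.09) and turned to -0.06 and -0.02 under these changes. Complex II was at 0.11 (-0.07 to 0.28), from 292 UMIs, and complex V at 0.04 (-0.00 to 0.08).

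The member with the highest ratio in Izumo1r cells was Atp5c1, the γ subunit that turns inside the ATP synthase, at 391 CPM against 314 (0.31, 0.14 to 0.48). Ndufb9, a membrane-arm subunit of complex I, was at 220 against 178 (0.31, 0.08 to 0.53), but at -0.05 without cells of the other marker groups. Cox4i1 was at 894 against 733 CPM (0.29, 0.17 to 0.40). It stayed above 0 under each alternative run, at 0.13 without cells of the other marker groups. At the lower end were Atp5g1 at 254 against 312 CPM (-0.30, -0.51 to -0.09), Ndufaf8 at 67.1 against 80.7 (-0.27, -0.69 to 0.13) and Atp5k at 140 against 163 (-0.22, -0.51 to 0.06).

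Atp5g1, Atp5g2 and Atp5g3 encode the same mature c subunit of the ATP synthase ring with different import sequences, so their UMIs can be read as shares of 1 product. Over all cells they held 19.4%, 51.0% and 29.6% of 23157 family UMIs. In Izumo1r cells Atp5g1 held 15.7% (13.7 to 17.8) against 19.7% elsewhere and Atp5g3 held 34.2% (31.6 to 36.9) against 29.3%. Atp5g2 was at 50.1% and 51.0%, and the family as a whole at 1621 and 1589 CPM. Thinning to 1500 UMIs with groups assigned anew left 90 Izumo1r cells. The log2 ratio of Atp5g1, as a share of all UMIs, was then -0.01. Its lower level was thus not seen there, where both the depth and the cells of the group differ. Atp5g3 was at 31.9% against 29.3% in Itgae cells and 31.9% against 29.2% in Ccl5-negative cells, and Atp5g2 at 48.6% against 51.4% in the latter. Mouse Atp5g genes have near-identical coding regions and processed copies in the genome, so the split of UMIs within the family is uncertain.

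**Figure D4:**
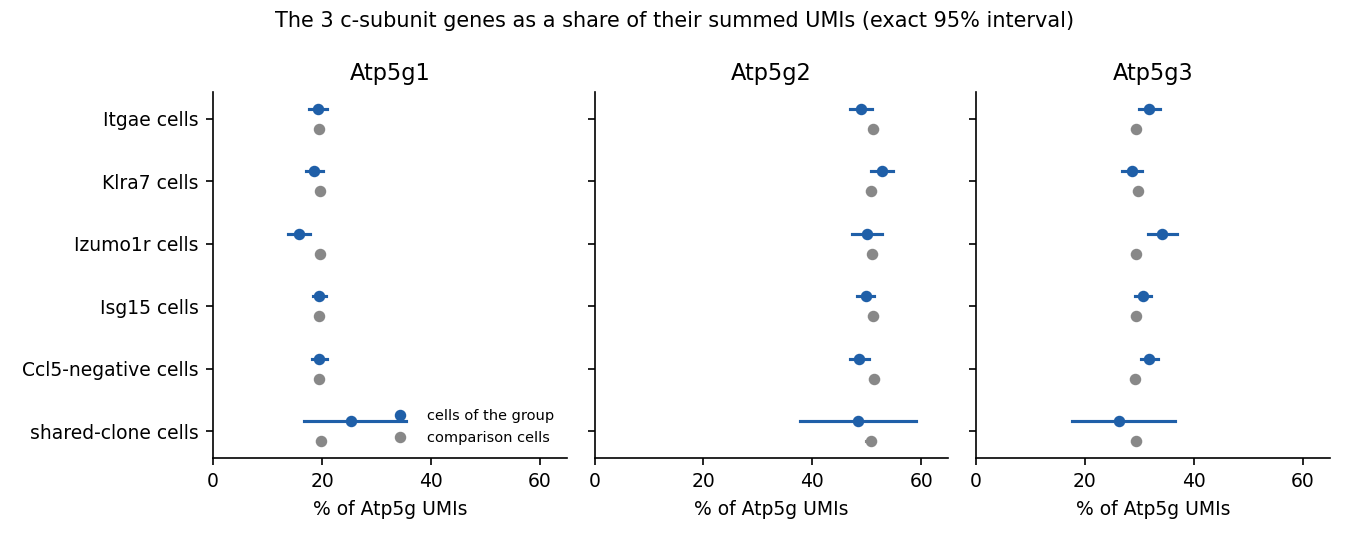
Share of the summed Atp5g1, Atp5g2 and Atp5g3 UMIs, in percent, held by each gene in each group of cells (blue) and its comparison cells (grey), with exact 95% counting intervals. In Izumo1r cells Atp5g1 sits at 15.7% against 19.7% and Atp5g3 at 34.2% against 29.3%.

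As in Itgae cells, mitochondrial complex I was lower in Izumo1r cells (0.642% against 0.673%, -0.07, -0.11 to -0.03) and mitochondrial complex IV higher (1.40% against 1.31%, 0.10, 0.07 to 0.13). mt-Co1 was at 6015 against 5294 CPM (0.18, 0.14 to 0.23) and mt-Nd2 at 1349 against 1525 (-0.18, -0.27 to -0.09). The quotient of nuclear to mitochondrial UMIs for complex I was 0.970 against 0.897 (0.11, 0.05 to 0.17), and 0.03 without cells of the other marker groups. Over all complexes it was 0.759 against 0.752 (0.01, -0.02 to 0.04), with -0.05 when per-cell shares were averaged. B cell markers summed to 362 CPM in Izumo1r cells and 227 in the others, and Cd40lg was at 22.8 against 7.05, from 18 UMIs. Xbp1 was at 34.2 against 20.8 and Pecam1 at 35.4 against 24.0. The part of these markers was not tested.

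In Isg15 cells nuclear complexes I to V lay between 0.01 and 0.06 on the log2 scale, and the mitochondrially encoded share was slightly lower, at 2.60% against 2.65% (-0.03, -0.04 to -0.01). The quotient of nuclear to mitochondrial UMIs was 0.773 against 0.748 (0.05, 0.03 to 0.07), and it was 0.07 with per-cell shares averaged and 0.12 after thinning, so it kept its sign under both. Of the 477 cells, 261 (54.7%) lay above the median quotient of the other cells. By complex the log2 ratio of quotients was 0.06 for I (0.02 to 0.09), 0.07 for III (0.01 to 0.13), 0.05 for IV (0.02 to 0.08) and 0.03 for V (-0.01 to 0.07). The highest members were Ndufb7 at 191 against 167 CPM (0.19, 0.04 to 0.34), Ndufs6 at 0.18 and Ndufs4 at 0.18, all subunits of complex I. The lowest were Ndufc2 at 115 against 131 CPM (-0.19, -0.38 to -0.00), Ndufs1 at -0.16 and Ndufab1, the acyl carrier protein, at -0.13. B cell markers summed to 275 CPM against 226 and Cd40lg was at 13.1 against 6.85, and their part was not tested.

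In Klra7 cells complex V was at 0.704% against 0.684% (0.04, 0.01 to 0.07) and the intervals of all other complexes included 0, on both genomes. The quotient of nuclear to mitochondrial UMIs was 0.760 against 0.751 (0.02, -0.01 to 0.04), and 0.08 after thinning. The highest member was Ndufab1 at 120 against 98.9 CPM (0.28, 0.03 to 0.51), followed by Sdha at 107 against 93.3 (0.20, -0.05 to 0.45) and Ndufb7 at 192 against 168 (0.19, 0.00 to 0.38). The lowest were Ndufa10 at 95.1 against 115 CPM (-0.27, -0.54 to -0.01), Ndufv2 at -0.17 and Uqcrq at -0.15. Ndufa10 changed sign, to 0.16, after thinning. The 2 of 4 NK cell markers in the table, Tyrobp and Fcer1g, summed to 27.6 CPM against 7.21, from 38 UMIs, and their part was not tested.

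In Ccl5-negative cells complex III was at 0.191% against 0.180% (0.09, 0.04 to 0.14) and complex IV at 0.468% against 0.454% (0.04, 0.01 to 0.07). Complex IV turned to -0.01 with per-cell shares averaged and to -0.02 without ribosomal and mitochondrially encoded genes in the total. Complexes I and V were at 0.02 and 0.00. The highest members were the complex I subunits Ndufs5 at 121 against 102 CPM (0.24, 0.04 to 0.43), Ndufs3 at 108 against 93.5 (0.21, 0.01 to 0.42) and Ndufb9 at 204 against 176 (0.21, 0.06 to 0.36). The lowest were Sdhc at 41.9 against 50.9 CPM (-0.28, -0.61 to 0.04), Ndufb7 at -0.16 and Atp5k at -0.16. Among respiratory chain genes of either genome with at least 50 expected UMIs, mt-Nd6 was the only 1 past 25% in a marker group, at 78.7 against 53.8 CPM (0.55, 0.30 to 0.80), from 169 UMIs. It shares its end with mt-Nd5 on the other strand, and mt-Nd5 was at 0.03. In Izumo1r cells mt-Nd6 had 60 UMIs and a log2 ratio of 0.43 (0.03 to 0.81), with fewer than 50 UMIs expected. B cell markers summed to 301 CPM in Ccl5-negative cells against 223, Cd40lg was at 14.4 against 6.77 and Pecam1 at 40.5 against 21.8, and their part was not tested.

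**Figure D5:**
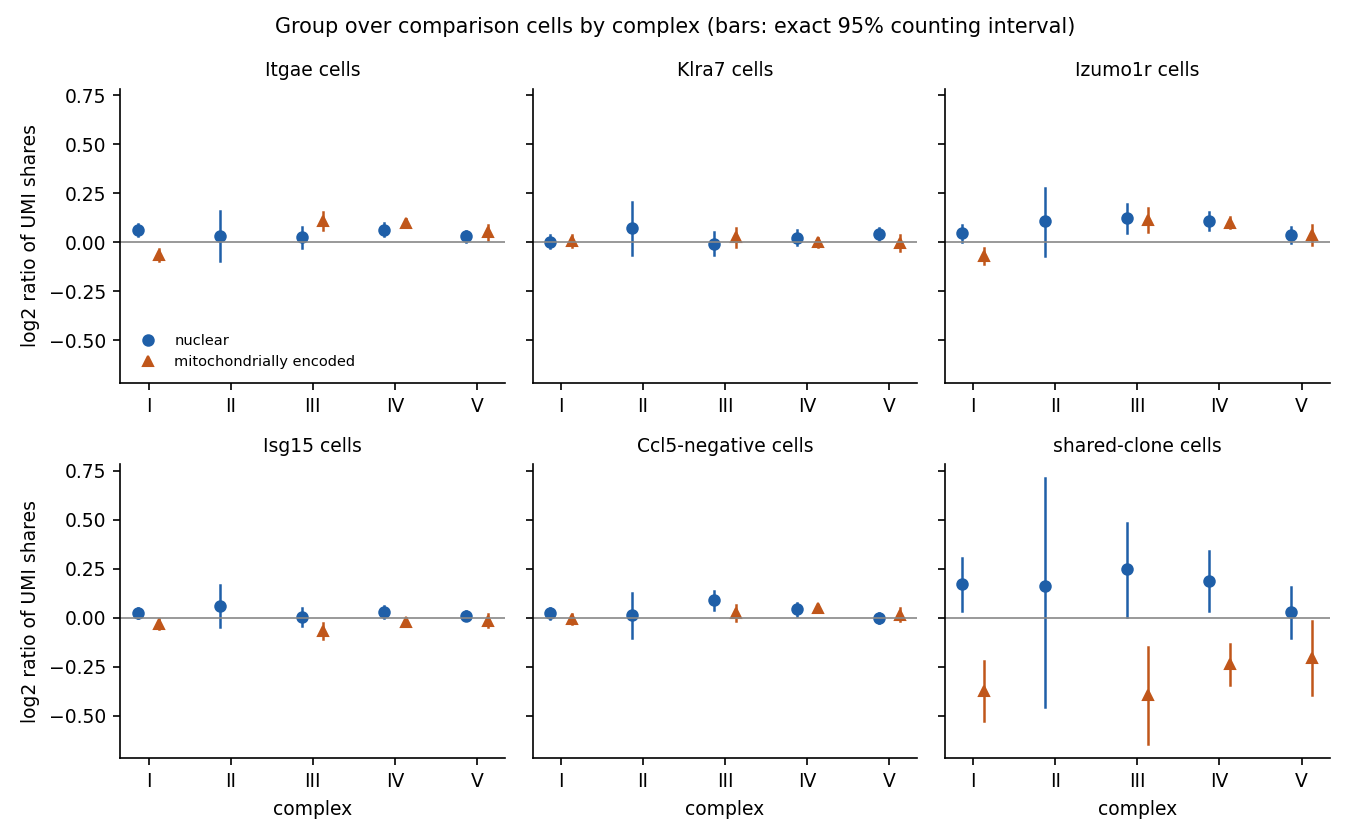
Log2 ratio of the share of UMIs in each group over its comparison cells (vertical axis) by respiratory chain complex (horizontal axis), for nuclear genes (blue points) and mitochondrially encoded genes (orange triangles), with exact 95% counting intervals as bars. Complex II has no mitochondrially encoded gene, and in shared-clone cells the mitochondrial points lie between -0.39 and -0.20 while nuclear complexes I, III and IV lie between 0.17 and 0.25.

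The 4 complex II genes were followed in all groups because the enzyme also belongs to the citric acid cycle. Its share was 0.0352% against 0.0343% in Itgae cells, and its log2 ratio was 0.03, 0.07, 0.11, 0.06 and 0.01 in Itgae, Klra7, Izumo1r, Isg15 and Ccl5-negative cells. Each of these intervals included 0. Sdha was at 0.18, 0.20, 0.28, -0.02 and 0.09, and Sdhb at 0.09, 0.01, 0.03, 0.10 and 0.04. Sdhc had 65 UMIs in Itgae cells and 90 in Ccl5-negative cells, and its intervals there reached above 0. Differences in complex II were not detectable at this depth.

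Cells of clones found in both tissues were compared as well. Of the 31 TCR clones shared by lymph node and skin, 26 had cells in the gene table, 28 cells in all, set against 2107 cells of clones found only in the lymph node. These 28 cells had 67509 UMIs, a median of 2281 per cell against 4556, a ribosomal share of 23.8% against 43.7%, and Itgae UMIs in 18 of the 28. Ccl5 was at 17287 CPM in them against 2500.1. They carried a larger nuclear and a smaller mitochondrially encoded respiratory chain share. The nuclear share was 2.19% against 1.997% (log2 ratio 0.13, 0.06 to 0.21) and the mitochondrial share 2.17% against 2.63% (-0.28, -0.36 to -0.21). With ribosomal and mitochondrially encoded genes out of the total, the nuclear ratio turned to -0.33, so the direction of the nuclear share rests on the total. The quotient of the genomes does not: it was 1.01 against 0.759, a log2 ratio of 0.41 (0.31 to 0.52).

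Of the 28 cells, 21 had a quotient above the median of the lymph-node-only cells, 20 a nuclear share above and 21 a mitochondrial share below it. The median quotient was 1.13 with quartiles of 0.822 and 1.65, against 0.762 with quartiles of 0.625 and 0.927, and the 28 cells ran from 0.127 to 2.43. By complex the log2 ratio of quotients was 0.54 (0.34 to 0.74) for I, 0.64 (0.30 to 0.98) for III, 0.43 (0.24 to 0.61) for IV and 0.23 (0.00 to 0.46) for V. It was 0.44 without the shared clone with most cells, 0.57 after thinning to 1500 UMIs and 0.49 without cells under 1500 UMIs. Set against the 196 lymph-node-only cells with an Itgae UMI, the 18 shared-clone cells with an Itgae UMI gave 0.51 (0.38 to 0.63).

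On the nuclear side complex III was at 0.216% against 0.182% (0.25, 0.00 to 0.48), complex IV at 0.523% against 0.459% (0.19, 0.03 to 0.34), complex I at 0.681% against 0.605% (0.17, 0.04 to 0.30) and complex V at 0.707% against 0.693% (0.03, -0.10 to 0.16). Complexes I, III and IV turned to -0.29, -0.22 and -0.27 without ribosomal and mitochondrially encoded genes in the total. On the mitochondrial side complex I was at 0.518% against 0.670% (-0.37, -0.53 to -0.22) and mt-Cytb at 1999.7 against 2623 CPM (-0.39, -0.65 to -0.15). mt-Nd1 was the lowest, at 948 against 1555 CPM (-0.71, -1.09 to -0.36) from 64 UMIs, followed by mt-Nd2 at 1037 against 1514 (-0.55, -0.91 to -0.21). The 10 mitochondrial genes with at least 50 expected UMIs were all below 0, and 3 of them, mt-Nd1, mt-Nd2 and mt-Cytb, were past the 25% difference, as were 83% of all genes compared there. Of those 153 compared genes, 81 were ribosomal, and the median log2 ratio of all 153 was -0.60.

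Only 3 nuclear members reached 50 expected UMIs in shared-clone cells. They were Cox4i1 at 859 against 741 CPM (0.21, -0.19 to 0.59), Atp5e at 815 against 925 (-0.18, -0.59 to 0.20) and Atp5g2 at 652 against 817 (-0.33, -0.79 to 0.10). Atp5g2 was past 25%, on the lower side. Of the 153 genes compared, 19.6% were past it upward and 63.4% downward, with a median log2 ratio of -0.60. These figures largely follow the ribosomal genes: 81 of the 153 were ribosomal, with a median of -0.87, and 78 of them were past it downward. With median-of-ratios scaling 55 genes were past it upward and 37 downward, where the total gave 30 and 97, and Cox4i1 and Atp5e were then the members past it, both higher. Sdhc had 1 UMI and Sdha 7 in these cells, so complex II could not be read. B cell markers summed to 370 against 226 CPM, with Ighd, H2-Ab1 and H2-Eb1 at 0, and myeloid markers to 193 against 83.2. Cd40lg was at 104 CPM against 5.32, from 7 UMIs, and Xbp1 at 119 against 18.7, from 8 UMIs, while Pecam1 was at 0. Their part in these values was not tested. These are 28 cells of 1 library, shallower than the cells they were set against.

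Other mitochondrial and metabolic gene lists were set beside the members in the same comparisons. The citric acid cycle genes had 2 of 11 members past 25% upward and 1 downward in Itgae cells, where 28.1% and 3.8% of all genes were, and a median of 0.09 against 0.17 over all genes, with Ogdh, a subunit of 2-oxoglutarate dehydrogenase, at 0.37 and Suclg2 at -0.48. In Ccl5-negative cells 2 of 14 were past it upward, against 12.3% of all genes, and Idh2, the mitochondrial NADP-dependent isocitrate dehydrogenase, was at 0.81. Glycolysis had 1 of 11, 1 of 9 and 1 of 12 members past it, upward, in Itgae, Izumo1r and Ccl5-negative cells, against 28.1%, 17.9% and 12.3% of all genes, and 2 of 11 in Klra7 cells, against 2.63%. In the first 3 the highest was Pkm, pyruvate kinase, at 0.34, 0.39 and 0.41, while the list medians were 0.02, -0.03 and -0.01, against 0.17, 0.10 and 0.09 over all genes.

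Mitochondrial protein import had a median of -0.08 over 23 members in Itgae cells, against 0.17 over all genes, and Hspd1, the matrix chaperonin, was lowest at -0.44. In Izumo1r cells Hspd1 was at -0.39. Mitochondrial ribosomal proteins had medians between -0.01 and 0.05 in the 5 marker groups, where all genes ran from -0.03 to 0.17. In Itgae cells 58 of them were compared, and 2 were past 25% upward and 3 downward, against 28.1% and 3.8% of all genes. Assembly factors outside the name rule had 14 of 42 genes compared in Itgae cells and a median of 0.01. Electron carriers and coenzyme Q enzymes had 5 of 16, with Cycs, cytochrome c, lowest at -0.07. Regulators of mitochondrial biogenesis were too sparse to describe as a list, with 4 of 20 genes compared in Itgae cells. The highest of these was Gabpb2, a subunit of the GABP factor whose motif was searched above, at 0.61.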

How the data were processed

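Single-cell RNA and TCR libraries of sorted CD8+CD44+ T cells were deposited as UMI count tables. The deposited lymph node gene table holds whole-number counts, in which the authors had pooled the 4 lanes of the library, and the deposited receptor tables list contigs with their UMI counts. Among tools, Bowtie and RSEM are named in the submitters' processing notes, with neither role nor version, beside the build mm10. Grouping followed the labels.

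Counts were summed over cells, and shares of UMIs were compared with Python 3.11.15, numpy 2.4.6, pandas 2.3.3 and scipy 1.17.1. Intervals are exact (Clopper-Pearson) for shares and, conditional on the total, for ratios of 2 shares. Those for quotients of nuclear to mitochondrial UMIs between groups are not exact: they use a normal approximation on the log of the 4 sums. All intervals cover counting error only. CPM is counts per 1000000 UMIs. With 1 library no test was made, and a gene past a 25% difference is only described as such, where at least 50 UMIs were expected on the smaller side. Clones join cells with the same CDR3 nucleotides in both receptor chains, and cells needed 1 TRB and 1 or 2 TRA sequences, from productive, full-length, high-confidence contigs. No doublet caller was run, and 315 of 2964 gene table cells with a contig carried at least 2 TRB sequences. Thinning drew 1500 UMIs per cell, left out 176 shallower cells and assigned marker groups anew on the thinned counts. It gave 190 Itgae, 111 Klra7, 90 Izumo1r, 230 Isg15, 876 Ccl5-negative and 22 shared-clone cells. A thinned value therefore differs from the main one in its cells as well as in depth. Ribosomal genes were matched by name, a pattern adjusted after the table was seen so that kinases and binding proteins stay out. The members, the gene lists and the markers were chosen with earlier results of these data known. Named are the 10 members with most UMIs, the 3 highest and 3 lowest per comparison, genes with isoform partners, the Sdh genes, all mitochondrially encoded genes, the markers and the extremes of the other lists. The comparison was run on simulated sums for Itgae cells with 3449 genes. The median estimate was 0.98 for 50 genes set at a log2 ratio of 1 and 0.51 for 50 set at 0.5. Of the 3249 unchanged genes, 4.96% were past 25%. These sums carried counting error only, which the intervals assume, and no cells were simulated. The run could not show how intervals hold where sums vary more over cells, as the nuclear (2.73 times) and mitochondrial (7.85 times) sums did. Positions are from GENCODE M21. Promoters are from RefSeq, GRCm38.p6, matched by symbol, 2 of them through a synonym. Runs shown are 60 to 120 bases and were trimmed to lie outside GENCODE exons. The gene table held 14556622 UMIs, 461 to 12576 per cell, and figures were drawn with matplotlib 3.10.9.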

Additional observations from a re-analysis of the deposited data

How the results depend on the processing

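No paired analysis was possible because the lanes of a library are pooled per cell and each tissue is 1 library. Of 739 values recomputed under alternatives, 572 stayed within their counting interval or within 1.5 times the count, 144 moved and 23 were reversed. Reversed values changed sign from a counting interval that held a single sign. Sign changes of values whose interval held both signs are not among the 23. These include the ratio of quotients in Itgae cells after thinning and in Izumo1r cells with per-cell shares averaged. The nuclear share and the quotient of nuclear to mitochondrial UMIs stayed within their intervals inside bins of equal depth, without assembly factors and members under 1000 UMIs and without the largest shared clone. They also did so without cells under 1500 UMIs, without shared-clone cells, between cells with an Itgae UMI and, for the share, without the 5 marker genes in the total, alternatives chosen after seeing the data. The 72 members with most UMIs, all kept when assembly factors and sparse members were left out, held 97.1% of the member UMIs. The 28 shared-clone cells came from 26 clones, so the largest clone held few of them. Both of these alternatives left most counts in place, so staying within the interval says little there. The cause of the changes that follow was not tested, except where the setting itself changes the total or the genes compared.

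Without ribosomal and mitochondrially encoded genes in the total, the log2 ratio of the nuclear share turned to -0.13 in Itgae, -0.045 in Izumo1r, -0.037 in Ccl5-negative and -0.33 in shared-clone cells, and was 0.045 in Klra7 and 0.0025 in Isg15 cells. Complexes I, IV and V turned to -0.12, -0.12 and -0.15 in Itgae cells, I and IV to -0.065 and -0.0022 in Izumo1r cells, IV to -0.021 in Ccl5-negative cells, and I, III and IV to -0.29, -0.22 and -0.27 in shared-clone cells. Over all cells the shares became 1.12% for complex I, 0.0441% for its assembly factors, 0.0635% for II, 0.335% for III, 0.842% for IV and 1.27% for V. Averaged over cells, complexes IV and V were at 0.451% and 0.675%, and with Ndufa4 moved, I and IV were at 0.563% and 0.497%.

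Thinned to 1500 UMIs, the nuclear ratio was 0.080 in Itgae, 0.073 in Klra7, 0.12 in Izumo1r and 0.010 in Ccl5-negative cells, and the ratio of quotients 0.12 in Itgae, 0.078 in Klra7, 0.12 in Isg15 and 0.57 in shared-clone cells. In Itgae cells the mitochondrial share then turned to -0.037, the complex III quotient to 0.0063 and Ndufa8 to -0.11, and in Klra7 cells Ndufa10 to 0.16. With 2 marker UMIs, the nuclear ratio was 0.021 in Itgae and 0.12 in Izumo1r cells, the ratio of quotients -0.10 in Itgae cells, and complex V of Itgae cells turned to -0.0040. Without cells of the other marker groups, the nuclear ratio was 0.031 in Itgae, 0.0099 in Izumo1r, 0.0030 in Isg15 and -0.0058 in Ccl5-negative cells, and in Izumo1r cells complex I turned to -0.017 and Ndufb9 to -0.055. With per-cell shares averaged, the nuclear ratio was 0.039 in Isg15 and -0.011 in Ccl5-negative cells, the ratio of quotients -0.048 in Izumo1r, 0.070 in Isg15 and -0.045 in Ccl5-negative cells, and complex IV of Ccl5-negative cells turned to -0.0090. In cells with contigs and under 2 TRB sequences, the ratio of quotients was -0.030 in Izumo1r cells.

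Members past 25%, 0 in each marker group and 1 in shared-clone cells at 50 expected UMIs, numbered 1 in Itgae, 1 in Klra7, 1 in Isg15, 3 in Ccl5-negative and 14 in shared-clone cells at 20. With no filter they numbered 2, 3, 1, 3 and 46, and 4 in Izumo1r cells. With median-of-ratios scaling they were 2 in Itgae, 2 in Izumo1r, 1 in Ccl5-negative and 2 in shared-clone cells. Over all genes the counts at 50, 20 and no expected UMIs were 1099, 2468 and 4416 in Itgae, 277, 1141 and 3090 in Klra7, 417, 1331 and 4532 in Izumo1r, 405, 1191 and 2194 in Isg15, 691, 1734 and 2981 in Ccl5-negative and 127, 240 and 7919 in shared-clone cells. Depth limits single members: 83 of 86 had fewer than 50 expected UMIs in shared-clone cells.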

Other observations

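The genes of mitochondrial fatty acid oxidation, which feeds electrons to the respiratory chain, were sparse, with 5 of 13 compared in Itgae cells. All 5 were above 0 there, as were most genes compared, whose lower quartile was a log2 ratio of -0.0008. The list median was 0.24, against 0.17 over all genes compared. The highest of the list was Acaa2, the thiolase of the last step, at 0.32. In Isg15 and Ccl5-negative cells the highest was Acads, the short-chain acyl-CoA dehydrogenase, at 0.42 and 0.45, while the list medians were -0.06 over 9 genes and 0.14 over 8, against -0.00 and 0.09 over all genes. In Klra7 cells all 7 compared genes of mitochondrial redox defence were below 0. Their median was -0.06, against -0.03 over all genes compared, which had quartiles of -0.14 and 0.07. The lowest of the 7 was Sod2, the manganese superoxide dismutase, at -0.30. Prdx5, a peroxiredoxin, was the highest of this list in Itgae cells at 0.33 and in Ccl5-negative cells at 0.33, and Gpx4, a glutathione peroxidase that acts on lipids, in Izumo1r cells at 0.34. These are values of 1 library with no test.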
